A study of Homo sapiens with 6 samples.

Results

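The genes described here encode the partners of Caspase-8 in the death-receptor complexes: the adaptors FADD and TRADD, the kinases RIPK1 and RIPK3, the necroptosis executioner MLKL, the Caspase-8-like regulator CFLAR, the inhibitor of apoptosis (IAP) genes XIAP, BIRC2 and BIRC3, and the deubiquitinase CYLD. They were taken by symbol, and all 10 were found among the 23290 genes of the deposited table. RNA came from U87, an established human glioblastoma line grown in medium with serum, as 6 libraries. In 3 libraries (shC8) the cells carried a retroviral vector that silences Caspase-8, and in 3 libraries (shCTR) they carried a scramble vector, so both groups had been infected with retrovirus. Neither the number of hairpins nor any cloning after infection is stated in the sources used here. The series calls the 3 samples of a group biological replicates without saying how the cultures were kept apart, so the p-values rest on a spread between libraries that may be partly technical.

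When tumour necrosis factor (TNF) binds its receptor, TRADD and RIPK1 assemble on it with the ubiquitin ligases BIRC2 and BIRC3, a membrane-bound assembly called complex I that feeds NF-kB. If the ubiquitin chains are removed, for which CYLD is known, RIPK1 moves to complex II, where FADD recruits Caspase-8 and CFLAR sets how active the protease becomes. Caspase-8 is known to restrain necroptosis, a lytic death in which RIPK3 phosphorylates MLKL and MLKL breaks the plasma membrane, and XIAP blocks caspases further down.

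Values are FPKM, fragments scaled by transcript length and by the fragments mapped in a library, so levels of different genes can be set side by side. Columns summed to between 489055 and 516634 FPKM. Absolute depth is unknown. Relative depth was estimated from the most common ratio of shCTR 1 to a library, among detected genes under 0.05 FPKM in both. By this estimate the other libraries had 1.06 to 1.21 times the depth of shCTR 1. Among the markers chosen for the line, VIM, CD44 and NES had a mean of at least 1 FPKM, while the astrocyte and glial progenitor genes GFAP, S100B, SOX2 and OLIG2 did not. CD44 was lower in shC8 (253 to 293 FPKM) than in shCTR (363 to 370 FPKM) and NES higher (9.30 to 12.2 FPKM in shC8 and 5.8 to 8.0 FPKM in shCTR), both without overlap, while VIM overlapped. Of 5 leukocyte markers CD68 alone reached that mean (the list summed to 135 to 152 FPKM in shC8 and 148 to 157 FPKM in shCTR), and CD3E was listed at 0 in all 6 libraries. The 3 endothelial markers together came to at most 0.161 FPKM in any shC8 library and 0.260 FPKM in any shCTR library. Of 4 neuron markers SNAP25 and SYT1 reached it (17.0 to 18.5 FPKM in shC8 and 18.1 to 20.9 FPKM in shCTR for the list). They went opposite ways without overlap, SNAP25 at 14.0 to 15.6 FPKM in shC8 and 16.1 to 18.8 FPKM in shCTR, and SYT1 at 2.79 to 2.97 FPKM in shC8 and 1.95 to 2.25 FPKM in shCTR. The part of these differences in the other results was not tested. CASP8 stood at 4.39, 4.46 and 4.44 FPKM in shC8 and 15.1, 14.9 and 13.4 FPKM in shCTR, so the silenced gene was lower in every library labelled as silenced.

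In Caspase-8-silenced cells TRADD rose, MLKL, XIAP and CFLAR fell, and the other 5 tested genes did not pass. In bulk RNA, fewer cells expressing a gene and less RNA of it per cell cannot be told apart. RIPK3 was listed at 0 FPKM in all 6 libraries and was not tested. TRADD was 1.46 times its shCTR level, MLKL 0.712 times, XIAP 0.758 times and CFLAR 0.844 times. The test was limma on log2(FPKM + 1) over the 11598 genes that averaged 1 FPKM or more, with Benjamini-Hochberg adjustment over all of them and a threshold of 0.05. Of the 9 tested genes of these complexes 4 passed, where 12.1% of all tested genes did. The 1 rise stands beside 7.14% of all genes called higher, and the 3 falls beside 4.94% called lower. Under median-of-ratios scaling of the columns 46.6% of the calls over all genes were rises, and under quantile normalization 49.4%, against 59.1% as deposited, and the same 4 genes passed in the same direction under both. With the replicate number as a block the same 4 passed, beside 26.6% of all genes. The shC8 and shCTR values did not overlap for these 4 genes, as was so for 34.8% of all tested genes.

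**Figure D1:**
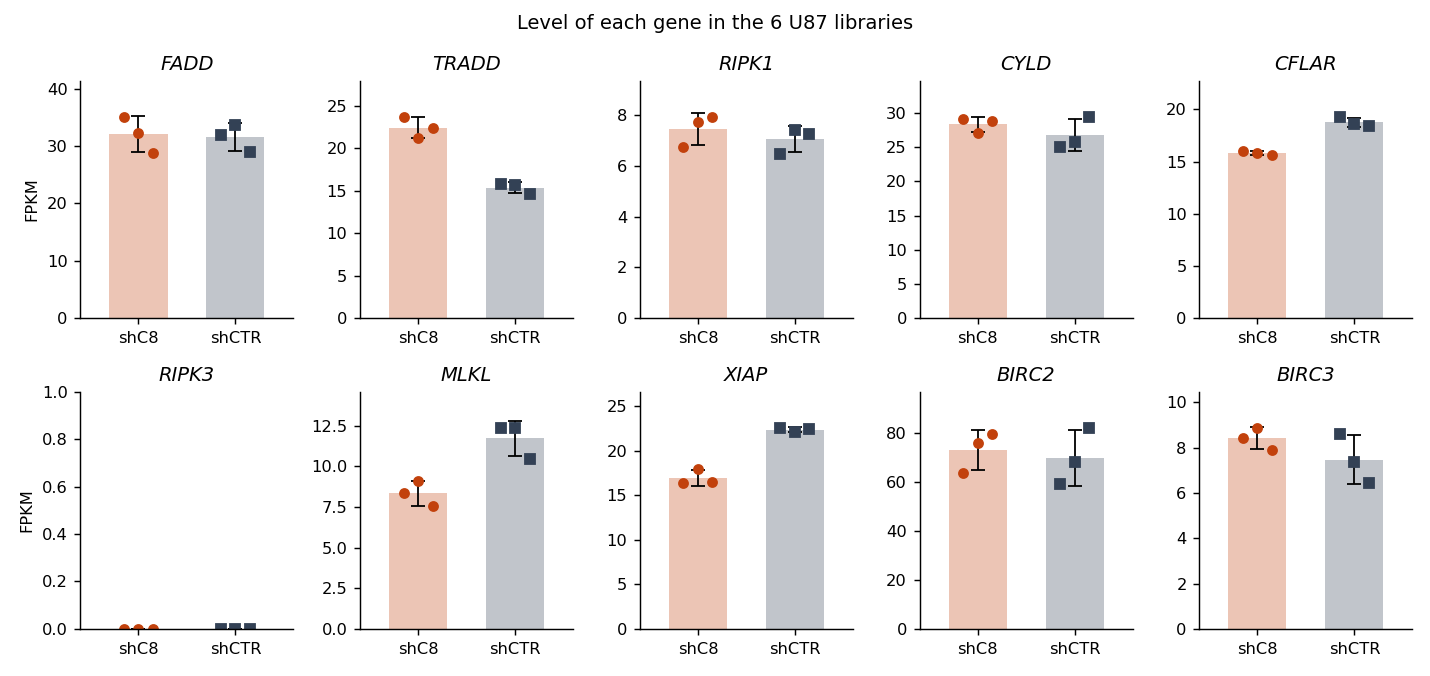
FPKM of the 10 genes in the 3 shC8 libraries (orange circles) and the 3 shCTR libraries (dark blue squares), with bars for the group mean and lines for ± 1 SD; each panel has its own axis from 0. TRADD lies above all shCTR values in shC8, MLKL, XIAP and CFLAR lie below them, and RIPK3 is at 0 throughout.

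TRADD, the adaptor that binds the death domain of TNF receptor 1 and brings in RIPK1 and the TRAF proteins, was the only one of the 10 genes called higher. It stood at 23.7, 21.2 and 22.5 FPKM in shC8 1, 2 and 3, against 15.8, 15.7 and 14.6 FPKM in shCTR 1, 2 and 3. Every shC8 library was above every shCTR library. The means were 22.5 ± 1.22 FPKM in shC8 and 15.4 ± 0.641 FPKM in shCTR (SD, n = 3 each). On the log2 scale TRADD was higher by 0.52 (SE 0.0672, 95% interval 0.36 to 0.67, limma adjusted p = 0.00557). The difference was 0.56, 0.41 and 0.59 on that scale in the pairs of libraries with the same number. TRADD (ENSG00000102871, minus strand, chr16:67154180-67160298 in GRCh38) shares 126 exon bases, 4.91% of its own, with FBXL8 on the other strand, an F-box protein gene. FBXL8 stood at 2.48, 1.86 and 3.19 FPKM in shC8 and 1.40, 1.92 and 0.962 FPKM in shCTR, overlapping groups with a log2 difference of 0.53 (SE 0.186; limma adjusted p = 0.105). The library kit keeps strand, but no source used here says whether the counting did, so reads of the shared bases cannot be assigned, and their part in the TRADD rise was not tested.

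FADD, the adaptor that links death domains to the death effector domains of Caspase-8, showed no difference beyond the spread of its replicates. It stood at 35.0, 32.3 and 28.8 FPKM in shC8 and 31.9, 33.7 and 28.9 FPKM in shCTR, and the groups overlapped almost fully. Its log2 change was 0.02 with a 95% interval of -0.19 to 0.23 (limma adjusted p = 0.899), and the sign turned under median-of-ratios scaling (-0.01). FADD (ENSG00000168040) lies on the plus strand at chr11:70203163-70207390.

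RIPK1, the kinase and scaffold shared by complex I, complex II and the necrosome, was the lowest of the 9 genes above 0 in both groups. It stood at 6.74, 7.74 and 7.92 FPKM in shC8 and 6.46, 7.42 and 7.25 FPKM in shCTR, with overlapping values. The log2 change was 0.07 with a 95% interval of -0.13 to 0.27 (limma adjusted p = 0.609). CYLD, which removes linear and lysine-linked ubiquitin chains from RIPK1 and its partners, stood at 29.2, 27.0 and 28.8 FPKM in shC8 and 25.0, 25.8 and 29.4 FPKM in shCTR. The highest CYLD value was in a shCTR library, and the log2 change was 0.08 with an interval of -0.10 to 0.26 (limma adjusted p = 0.505).

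On the necroptosis side the executioner fell and its kinase was listed at 0. MLKL (ENSG00000168404, minus strand, chr16:74671855-74700960), the pseudokinase that forms membrane pores, stood at 8.37, 9.09 and 7.55 FPKM in shC8 and 12.3, 12.4 and 10.4 FPKM in shCTR. The highest shC8 value lay under the lowest shCTR value. The means were 8.34 ± 0.766 FPKM in shC8 and 11.7 ± 1.10 FPKM in shCTR (SD, n = 3 each), 28.8% lower in shC8. The log2 difference was -0.44 (SE 0.0937, 95% interval -0.66 to -0.23, limma adjusted p = 0.026). Pairs of same-numbered libraries differed by -0.51, -0.41 and -0.42. The call ended without shC8 3, without shCTR 1 or without shCTR 2 (limma adjusted p of 0.0849, 0.0837 and 0.0815), and also when genes of low level were kept in the fit (0.0575). RIPK3, the kinase that phosphorylates MLKL (ENSG00000129465, chr14:24336021-24340045), was 1 of 4566 genes listed at 0 in every library, as was ZBP1, a nucleic acid sensor that can activate RIPK3. In a table without counts a value of 0 can be a failed estimate, so absence of the transcripts cannot be read from it.

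CFLAR (ENSG00000003402), whose protein cFLIP pairs with Caspase-8 through death effector domains and lacks a working protease site, fell by less than MLKL and XIAP. It stood at 16.1, 15.8 and 15.6 FPKM in shC8 and 19.3, 18.6 and 18.4 FPKM in shCTR. These were tight groups, 15.8 ± 0.212 FPKM in shC8 and 18.8 ± 0.441 FPKM in shCTR (SD, n = 3 each), and they did not overlap. The log2 difference was -0.23 (SE 0.0567, 95% interval -0.36 to -0.10, limma adjusted p = 0.0402), with -0.25, -0.22 and -0.22 in the 3 pairs. The call ended in each of the 6 fits without 1 library (adjusted p between 0.0538 without shC8 1 and 0.128 without shC8 3). The antisense gene CFLAR-AS1, which shares 3.45% of the CFLAR exon bases, had at most 0.238 FPKM in shC8 and 0.439 FPKM in shCTR. The table has 1 value per gene, so the long and short forms of cFLIP could not be told apart.

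CFLAR lies next to CASP10 and CASP8 on chromosome 2, all on the plus strand, at chr2:201116104-201176687, chr2:201182881-201229406 and chr2:201233443-201287711. CASP10, a close relative of CASP8, stood at 0.878, 1.03 and 0.862 FPKM in shC8 and 0.649, 0.648 and 0.713 FPKM in shCTR, and it was under the minimum for testing. CASP8, the silenced gene, and CFLAR were lower in every shC8 library, and CASP10, at its low level, was higher. Whether the neighbours changed together was not tested.

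The amount of CFLAR per CASP8 was larger in the silenced cells. Within each library the ratio of CFLAR to CASP8 FPKM was 3.66, 3.55 and 3.53 in shC8 and 1.27, 1.25 and 1.38 in shCTR, with means of 3.58 ± 0.073 in shC8 and 1.30 ± 0.0677 in shCTR (SD, n = 3 each). The difference of 1.46 on the log2 scale had an exact two-sided permutation p of 0.1, the smallest that 3 against 3 libraries allow. CASP8, the silenced gene, is the denominator and was 69.4% lower, while CFLAR was 15.6% lower. The separation of this ratio was therefore largely set beforehand by the choice of denominator, and its p is no independent result. The ratio of TRADD to FADD was 0.676, 0.657 and 0.779 in shC8 and 0.494, 0.466 and 0.506 in shCTR, 0.52 higher on the log2 scale with the same exact permutation p of 0.1. For BIRC2 to BIRC3 the ratio was 7.57, 8.57 and 10.1 in shC8 and 6.89, 9.31 and 12.7 in shCTR, values that overlapped (exact permutation p = 0.8). These ratios are free of the library total.

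**Figure D2:**
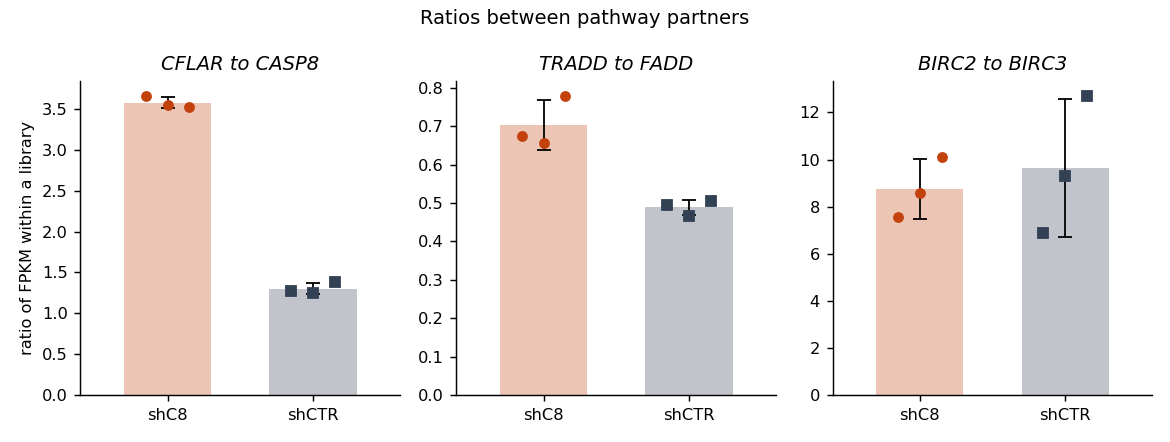
Ratio of FPKM within each library for 3 pairs of genes, in shC8 (orange circles) and shCTR (dark blue squares), with bars for the group mean and lines for ± 1 SD. CFLAR to CASP8 and TRADD to FADD are separated between the groups, at 3.53 to 3.66 in shC8 against 1.25 to 1.38 in shCTR and at 0.657 to 0.779 in shC8 against 0.466 to 0.506 in shCTR, and BIRC2 to BIRC3 is not.

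Of the IAP genes XIAP fell, and BIRC2 and BIRC3 did not pass. XIAP (ENSG00000101966, plus strand, chrX:123859724-123913979), which binds and inhibits caspases, stood at 16.4, 18.0 and 16.5 FPKM in shC8 and 22.5, 22.1 and 22.4 FPKM in shCTR. The shCTR values were close together, and all were above shC8. The means were 16.9 ± 0.902 FPKM in shC8 and 22.4 ± 0.238 FPKM in shCTR (SD, n = 3 each), 24.2% lower in shC8. The log2 difference was -0.38 (SE 0.0622, 95% interval -0.53 to -0.24, limma adjusted p = 0.0115). The pairs differed by -0.44, -0.28 and -0.42, and without shC8 3 the adjusted p was 0.0503. XIAP has 3 processed pseudogenes in the annotation that have no value here, and a close copy, BIRC8, and reads could be shared among them.

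BIRC2, the gene of cIAP1, had the highest level of the 10 genes and the widest spread between replicates. It stood at 64.0, 76.0 and 79.8 FPKM in shC8 and 59.4, 68.4 and 82.2 FPKM in shCTR, with the lowest and the highest value both in shCTR. Its log2 change was 0.07 with a 95% interval of -0.24 to 0.38 (limma adjusted p = 0.756), and it was -0.04 without shCTR 1. BIRC3, the gene of cIAP2 and a known NF-kB target, stood at 8.45, 8.87 and 7.91 FPKM in shC8 and 8.62, 7.35 and 6.46 FPKM in shCTR. The shC8 values lay inside or just above the range of shCTR, and the log2 change was 0.16 with an interval of -0.08 to 0.40 (limma adjusted p = 0.345). BIRC3 and BIRC2 are neighbours on the plus strand, at chr11:102317450-102339403 and chr11:102347211-102378670.

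BIRC3 and CFLAR are both known NF-kB targets, and their promoters are shown because BIRC3 did not pass the test while CFLAR fell. Each run is the plus strand 5′ to 3′, from 250 bases before to 50 after a RefSeq start in GRCh38.p14, with matches to the NF-kB consensus (either strand) in capitals. BIRC3 is at chr11:102317234-102317533, and CFLAR is at chr2:201118466-201118765, the most upstream of its 4 starts in that table.
BIRC3: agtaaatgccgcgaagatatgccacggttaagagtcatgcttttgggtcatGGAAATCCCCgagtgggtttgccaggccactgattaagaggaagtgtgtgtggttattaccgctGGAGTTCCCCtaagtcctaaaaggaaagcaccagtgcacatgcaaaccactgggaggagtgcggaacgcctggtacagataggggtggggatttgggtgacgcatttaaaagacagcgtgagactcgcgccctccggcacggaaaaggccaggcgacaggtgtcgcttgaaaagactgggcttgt
CFLAR: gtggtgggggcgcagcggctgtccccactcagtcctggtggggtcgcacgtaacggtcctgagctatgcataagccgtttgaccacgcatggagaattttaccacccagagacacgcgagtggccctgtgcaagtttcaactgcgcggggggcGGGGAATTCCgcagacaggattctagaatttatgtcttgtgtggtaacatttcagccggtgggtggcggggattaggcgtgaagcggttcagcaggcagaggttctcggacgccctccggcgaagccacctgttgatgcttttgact
The BIRC3 promoter held 2 matches, GGAAATCCCC and GGAGTTCCCC, which begin 199 and 135 bases before the start. The CFLAR promoter held GGGGAATTCC, 97 bases before its start. Of 35116 promoters of the same length, 11.3% held the consensus. The 9-letter form GGGANTTCC, which lies inside the first BIRC3 match (on the minus strand) and inside the CFLAR match, was found in 1.85% (both strands). Promoters were found for 8 of the 10 genes. Of the others CYLD alone held the consensus, at 2 of its starts, and the AP-1 motif TGANTCA (7.71% of promoters, both strands) was found for FADD and at another CFLAR start. A motif of interferon response elements (3.57% of promoters, both strands) was found once for RIPK1, in a stretch that 2 of its promoters share. These matches describe letters and do not show binding.

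XIAP and CFLAR share a short word in their 3′ UTRs. The word GGACAAA had been picked out in an earlier search of these data among genes that fell and rose in shC8, so its presence in fallen genes is no independent support. Sites are shown with 8 bases on each side and the word in capitals, plus strand, GRCh38, at chrX:123908590-123908612, chrX:123912437-123912459 and chr2:201169778-201169800.
XIAP site 1: tgtatataGGACAAAatgttaag
XIAP site 2: gccagcctGGACAAAaggcaaaa
CFLAR site: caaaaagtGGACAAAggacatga
All 3 annotated XIAP transcripts with a 3′ UTR of at least 50 bases held the word, and 1 of 12 did for CFLAR, the one with a UTR of 12714 bases. MLKL, which fell, and TRADD, which rose, did not hold it, with much shorter 3′ UTRs of 649 and 469 bases. CYLD, with a 3′ UTR of 5427 bases, did not hold it either and did not pass the test. The word occurred in 13.9% of the 10140 tested genes with an annotated 3′ UTR and in 37.8% of those with a UTR of 5000 bases or more (XIAP has 6798). Among the genes searched it occurred in 33.8% of those called lower and 8.68% of those called higher. Of the 62 genes called lower with a UTR of 5000 bases or more, 62.9% held it. These shares come from the data in which the word was picked. The part of the word in the falls of XIAP and CFLAR was not tested.

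**Figure D3:**
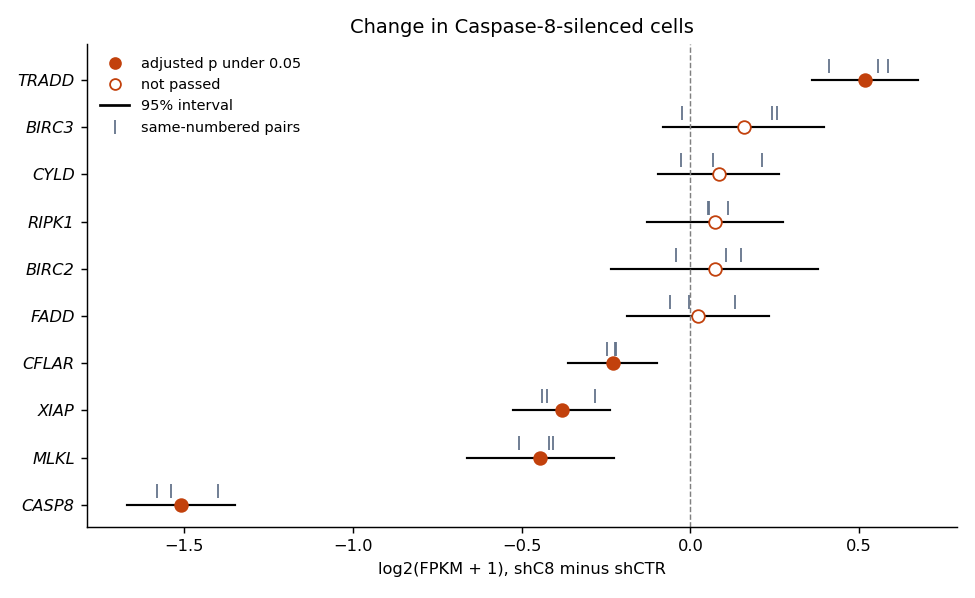
Change in log2(FPKM + 1), shC8 minus shCTR, for the 9 tested genes and CASP8; circles are the limma estimate (filled where the adjusted p was under 0.05), lines its 95% interval, and ticks the differences of the 3 same-numbered pairs. CASP8 lies at -1.51, MLKL, XIAP and CFLAR between -0.44 and -0.23, TRADD at 0.52, and the other 5 intervals include 0.

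In shC8 cells the order of mean FPKM was BIRC2, FADD, CYLD, TRADD, XIAP, CFLAR, BIRC3, MLKL, RIPK1 and CASP8, from 73.3 to 4.43 FPKM. FADD and CYLD overlapped there, as did BIRC3 with MLKL and MLKL with RIPK1. In shCTR cells the order was BIRC2, FADD, CYLD, XIAP, CFLAR, TRADD, CASP8, MLKL, BIRC3 and RIPK1, from 70.0 to 7.05 FPKM, with overlap between FADD and CYLD, TRADD and CASP8, and BIRC3 and RIPK1. TRADD thus ranked above XIAP and CFLAR in shC8 and below both in shCTR, without overlap in either group. The spread between replicates ran from 1.34% of the mean for CFLAR to 11.3% for BIRC2 in shC8, and from 1.07% for XIAP to 16.4% for BIRC2 in shCTR.

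Numbers in the deposited column names fall in a lower range (shC8 1, shCTR 1 and shCTR 3) and an upper range (shC8 2, shC8 3 and shCTR 2) of unstated meaning. The 4 called genes kept their sign in both, which was fixed beforehand, since their shC8 and shCTR values did not overlap. TRADD differed by 0.61 in the lower and 0.45 in the upper range, MLKL by -0.40 and -0.52, XIAP by -0.44 and -0.34 and CFLAR by -0.22 and -0.23. With the range as a term in the fit CFLAR did not pass (adjusted p = 0.0637).

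The tested genes whose values ran most like those of each called gene were found by the root mean square difference in log2(FPKM + 1) over the 6 libraries, after centring each gene. They were SNX12, BLMH and TTYH3 for TRADD, at 0.0379 to 0.0422. For MLKL they were ARHGEF6, ZEB2 and SH3BP5, at 0.0315 to 0.0441. XIAP was closest to MAP6, DYNLL2 and SH2B2, at 0.023 to 0.0326, and CFLAR to TSR1, PARN and C17orf51, at 0.0114 to 0.0233.

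Other proteins of the same complexes were read from 5 lists, and the rises described here were in complex I. Of 48 tested genes on the lists 6 rose, CASP8 itself fell and 41 did not pass. Without CASP8 12.8% were called, close to the 12.1% of all genes. The median log2 change of the 47 was 0.07, against 0.04 over all tested genes. With the replicate block 14 of the 48 passed, 9 higher and 5 lower, beside 26.6% of all genes.

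In complex I, 4 of 19 genes rose, none fell and 15 did not pass, with a median of 0.11. The 4 rises are 21.1% of the list, beside 7.14% of all tested genes called higher and 12.1% called either way. TNFRSF1A, the gene of TNF receptor 1 to which TRADD binds, stood at 55.7, 50.6 and 53.4 FPKM in shC8 and 34.4, 35.7 and 41.6 FPKM in shCTR. All shC8 values were above shCTR, and the log2 difference was 0.51 (SE 0.084, limma adjusted p = 0.0119). MAPKAPK2, a kinase that phosphorylates RIPK1 and restrains its killing activity, stood at 49.3, 47.8 and 47.2 FPKM in shC8 and 35.3, 38.4 and 36.5 FPKM in shCTR. It rose by 0.38 (SE 0.0597, limma adjusted p = 0.01) with no overlap. The rises of RBCK1, a subunit of the linear ubiquitin ligase, and IKBKG, the NF-kB kinase subunit NEMO, were 0.40 and 0.29 (adjusted p of 0.0434 and 0.032). In the 6 fits that each left out 1 library, RBCK1 never passed and IKBKG passed in 1, while TNFRSF1A and MAPKAPK2 passed in all 6. The RBCK1 call also ended under quantile normalization, median-of-ratios scaling, no filter on low values and a term for the column number range (adjusted p of 0.0568, 0.0531, 0.091 and 0.071). TNIP1, which binds ubiquitin and limits NF-kB, stood at 42.2, 57.8 and 42.1 FPKM in shC8 and 88.4, 87.1 and 45.3 FPKM in shCTR. The groups overlapped through shCTR 3, and the log2 change was -0.58 (adjusted p = 0.182), with adjusted p = 0.0498 under the replicate block and 0.0226 without shCTR 3. MAP3K7, the kinase TAK1 of complex I, changed by 0.08 (adjusted p = 0.404).

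On the list for complex II and the death-inducing signalling complex, CASP8 fell as the silenced gene. TNFRSF10B, a receptor of the death ligand TRAIL, changed by -0.24 (adjusted p = 0.15, and 0.0185 under the replicate block), and BID, a Caspase-8 substrate, by -0.04 (adjusted p = 0.824).

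None of 13 tested necroptosis genes passed in limma, with 4 at an unadjusted p under 0.05, as were 3449 of all 11598 tested genes, a like share. With the replicate block 1 of the 13 passed (CHMP2A, of the membrane repair machinery, lower in shC8), where 26.6% of all tested genes did. The most abundant were HSP90AA1 and CDC37, chaperones of RIP kinases, with log2 changes of -0.19 and -0.01 (adjusted p of 0.46 and 0.966). None of 5 tested genes of other BIR-domain proteins and IAP antagonists passed, with 1 at an unadjusted p under 0.05. With the replicate block 1 of these 5, BIRC6, a giant BIR-domain ubiquitin ligase, was called higher, beside the same 26.6% of all tested genes. BIRC5, the mitotic survivin gene, changed by -0.09 (adjusted p = 0.417), and DIABLO, which displaces caspases from XIAP, by 0.15 (adjusted p = 0.226). Of 5 genes of the non-canonical NF-kB branch that BIRC2 and BIRC3 hold in check none passed in limma, 0 at an unadjusted p under 0.05. NFKB2 changed by -0.10 and TRAF3 by -0.01 (adjusted p of 0.674 and 0.974).

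**Figure D4:**
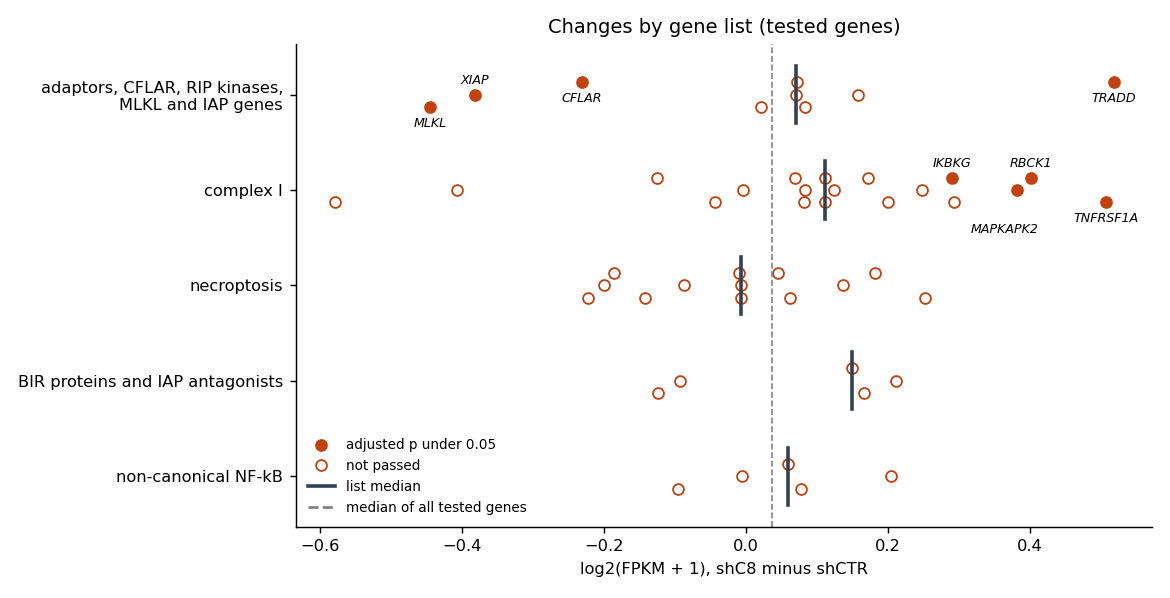
Change in log2(FPKM + 1), shC8 minus shCTR, for the tested genes of the 10 described here (top) and of 4 lists of their partners; filled circles had an adjusted p under 0.05, short bars are list medians and the dashed line is the median of all tested genes. The called genes of complex I lie between 0.29 and 0.51, and no filled circle stands in the last 3 lists.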

How the data were processed

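Per the labels' protocols, DNase-treated total RNA of U87 cells went through ribosomal depletion and a strand-keeping library kit. FPKM per gene symbol and library were used as the authors deposited them. TopHat, Cufflinks, Cuffdiff and the build hg38 are named without versions or roles in the submitters' processing notes, and no source used here gives the annotation or says whether strand was used. Since FPKM are relative to the whole library, changes in very abundant genes move every other value, and no counts can be read from them. No count test and no counting interval was therefore made, and absolute depth is unknown.

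The 10 genes, the 5 partner lists, the markers and the tests were chosen with earlier results of these data known. From the files were computed log2(FPKM + 1), limma with a mean trend over the 11598 genes that averaged 1 FPKM or more (two-sided, Benjamini-Hochberg), within-library ratios with exact permutation tests, and motif matches. R 4.3.3, limma 3.58.1 and Python 3.11.15 were used. Fold changes on this scale understate changes of low genes, and ratios written as "times" are of mean FPKM. Of the 55 list genes 54 were in the table, 2 of them under older symbols (FAM105B and KIAA0317 for OTULIN and AREL1). Named from the lists are the genes that passed and the 2 of highest level that did not, some genes counted in the lists are not reported here by name, and CASP10, ZBP1, FBXL8, CFLAR-AS1, CHMP2A and BIRC6 were named after their values were seen. Gene positions and 3′ UTRs are from GENCODE 29 (GRCh38, the assembly called hg38), with the longest UTR per gene, found by symbol for 87.4% of tested genes, and promoters are from RefSeq (GRCh38.p14).

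Same-numbered shC8 and shCTR libraries deviated together from their group means (correlations over genes of 0.397, 0.266 and 0.291), and the numbers were therefore read as pairs, on the strength of the values, since no label says so. The fit without a block is the one reported. On simulated data for shC8 against shCTR with 11598 genes, the test found 40% of 100 genes shifted by 0.5 (log2) and 88% of 100 shifted by 1, with 2.29% false calls. The simulated libraries were independent, without the pairing seen here, and fewer genes were shifted than the data called. These shares therefore need not hold for the data. Alternatives were a pseudocount of 0.1, no filter, a minimum mean of 5 FPKM, quantile and median-of-ratios scaling, the replicate block, a term for the column number range, moderation without a trend and leaving out each library.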

Additional observations from a re-analysis of the deposited data

How the results depend on the processing

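TRADD kept its direction and its call in every alternative tried, with log2 changes between 0.48 and 0.56. Over the alternatives CASP8 lay between -1.68 and -1.48 and always passed, and RIPK1, BIRC3 and CYLD never passed and stayed above 0. MLKL lost its call with no filter on low values (-0.445), and CFLAR lost it with a term for the column number range (-0.22) and without a mean trend (-0.23). FADD turned to -0.0129 with median-of-ratios scaling. The replicate block called 3086 of all genes and 14 on the partner lists, where TNIP1 (-0.58) and TNFRSF10B (-0.24) were among those gained, and it changed no call among the 10 genes. With the column range term CDC37 (0.0327) and TRAF3 (0.00959), which did not pass, turned sign. The cause was not tested.

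With 1 library left out the calls ranged from 522 to 1376 over all genes, from 1 to 3 among the 10 and from 5 to 8 on the partner lists. The fit without shC8 3 called TRADD alone of the 10. The log2 changes then ranged from -0.52 to -0.38 for MLKL, from -0.24 to -0.21 for CFLAR, from -0.42 to -0.36 for XIAP, from -0.0421 to 0.0942 for FADD and from -0.0393 to 0.192 for BIRC2. The log2 ratio of BIRC2 to BIRC3 ranged from -0.33 to 0.12. Of genes that did not pass, signs turned for BID (-0.154 to 0.0495), CDC37 (-0.0485 to 0.0323), NFKB2 (-0.204 to 0.0446) and TRAF3 (-0.0466 to 0.0676). With 3 libraries a group, a gene that did not pass may still differ within its interval. No fit gave RIPK3 a value.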
